A study of Homo sapiens with 6 samples.

Results

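Target genes of the transcriptional coactivator YAP were followed in 5637 cells, an established human bladder carcinoma line, after knockdown of RAD51C. The genes are CCN1, CCN2, THBS1, ANKRD1, FJX1, AMOTL2, AJUBA, CRIM1, F3 and NT5E, named as direct targets of YAP and its DNA-binding partners, the TEAD factors. All 10 were found among the 23024 genes of the deposited table. They had been picked with the present contrast known, as targets that were higher after the knockdown, so their difference between the groups is described here with no test. The knockdown group is 3 libraries of cells carrying a hairpin directed at RAD51C (sh-RAD51C), labelled as a RAD51C knockdown. It is set against 3 libraries named NC, labelled as wild type. All RNA came from transfected cells of this 1 line, and the labels give neither the hairpin sequence nor what the NC cells received. Nothing says that the libraries within a group are separate cultures, so the p-values rest on a spread that may be technical.

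YAP and its paralog TAZ are the output of the Hippo pathway. When the Hippo kinases are active, the LATS kinases phosphorylate YAP and hold it in the cytoplasm. When they are not, YAP enters the nucleus and binds TEAD factors, which recognise the DNA motif GGAATG, often near sites of AP-1. In epithelial and carcinoma cells this output responds to cell density, adhesion and tension on the actin cytoskeleton. The targets followed here include secreted matrix proteins, cell surface proteins and proteins that feed back on the pathway.

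The promoters of 4 of the genes are shown because they hold the TEAD motif close to the start of transcription. Each window runs from 250 bases before the start site to 50 bases after it, in RefSeq on GRCh38.p14, 5′ to 3′ on the strand of the gene, and capitals mark GGAATG or its reverse complement CATTCC. The windows are chr6:131951323-131951622 on the minus strand for CCN2, chr10:90921038-90921337 on the minus strand for ANKRD1, chr15:39580829-39581128 on the plus strand for THBS1, and chr3:134374398-134374697 on the minus strand for AMOTL2.
CCN2: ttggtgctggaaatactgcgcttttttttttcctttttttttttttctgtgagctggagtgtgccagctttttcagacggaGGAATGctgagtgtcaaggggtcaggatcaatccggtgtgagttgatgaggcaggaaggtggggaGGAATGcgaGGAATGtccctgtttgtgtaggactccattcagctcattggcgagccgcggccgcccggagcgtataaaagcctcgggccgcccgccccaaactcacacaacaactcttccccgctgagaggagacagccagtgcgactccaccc
ANKRD1: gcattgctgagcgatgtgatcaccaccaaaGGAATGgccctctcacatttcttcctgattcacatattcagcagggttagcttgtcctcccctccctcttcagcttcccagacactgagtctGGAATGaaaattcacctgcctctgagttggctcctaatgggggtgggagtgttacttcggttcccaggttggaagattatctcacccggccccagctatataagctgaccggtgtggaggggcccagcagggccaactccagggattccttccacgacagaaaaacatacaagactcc
THBS1: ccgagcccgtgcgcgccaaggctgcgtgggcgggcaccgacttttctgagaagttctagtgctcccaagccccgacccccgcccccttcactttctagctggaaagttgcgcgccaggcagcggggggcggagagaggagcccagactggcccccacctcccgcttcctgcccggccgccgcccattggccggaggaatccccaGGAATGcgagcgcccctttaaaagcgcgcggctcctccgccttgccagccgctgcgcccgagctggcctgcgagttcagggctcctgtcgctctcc
AMOTL2: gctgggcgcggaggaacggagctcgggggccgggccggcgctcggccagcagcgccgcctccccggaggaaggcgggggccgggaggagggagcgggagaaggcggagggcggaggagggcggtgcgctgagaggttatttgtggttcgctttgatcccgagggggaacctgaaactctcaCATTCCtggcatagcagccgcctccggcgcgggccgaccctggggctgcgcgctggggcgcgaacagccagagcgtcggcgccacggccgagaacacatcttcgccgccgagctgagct

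CCN2 held 3 copies of GGAATG, starting 169, 104 and 95 bases before the start site. Among all 35116 RefSeq windows, 14.0% held at least 1 match on either strand and 0.128% held 3 or more. ANKRD1 held 2 copies, starting 220 and 128 bases before the start site. THBS1 held 1 copy starting 46 bases before its start site, AMOTL2 held 1 on the opposite strand 69 bases before its inner start, and AJUBA held 1 starting 59 bases before its inner start. Of the 10 genes, 8 had a window, and 5 of these 8 held the motif. AMOTL2 and AJUBA each had an inner and an outer start and were counted if either window matched. The 14.0% counts single windows. The genes were named as direct targets of YAP and TEAD, so no enrichment is read from their count. FJX1, F3 and NT5E held no GGAATG in these windows, which says nothing of TEAD binding elsewhere.

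The promoter of F3, chr1:94541710-94542009 on the minus strand, is shown because it held the AP-1 motif TGANTCA (capitals, N standing for any base) and not the TEAD motif.
F3: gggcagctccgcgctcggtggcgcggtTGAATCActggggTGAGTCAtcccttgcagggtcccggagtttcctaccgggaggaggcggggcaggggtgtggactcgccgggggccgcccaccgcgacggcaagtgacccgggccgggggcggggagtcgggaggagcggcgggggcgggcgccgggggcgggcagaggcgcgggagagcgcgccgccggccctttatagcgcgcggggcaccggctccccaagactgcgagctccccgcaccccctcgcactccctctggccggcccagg

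F3 held 2 copies of TGANTCA, and ANKRD1 held 1. The motif reads the same on both strands and shares no overlapping match with GGAATG here, and 7.71% of all windows held it. No window of the 8 genes that had one held a CArG box, the site of the factor SRF, which 1.29% of all windows held. At so low a share the absence says little, and it says nothing of sites elsewhere. CCN1 and CRIM1 had no window. A motif match is a description of the letters and not evidence of a bound site.

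**Figure D1:**
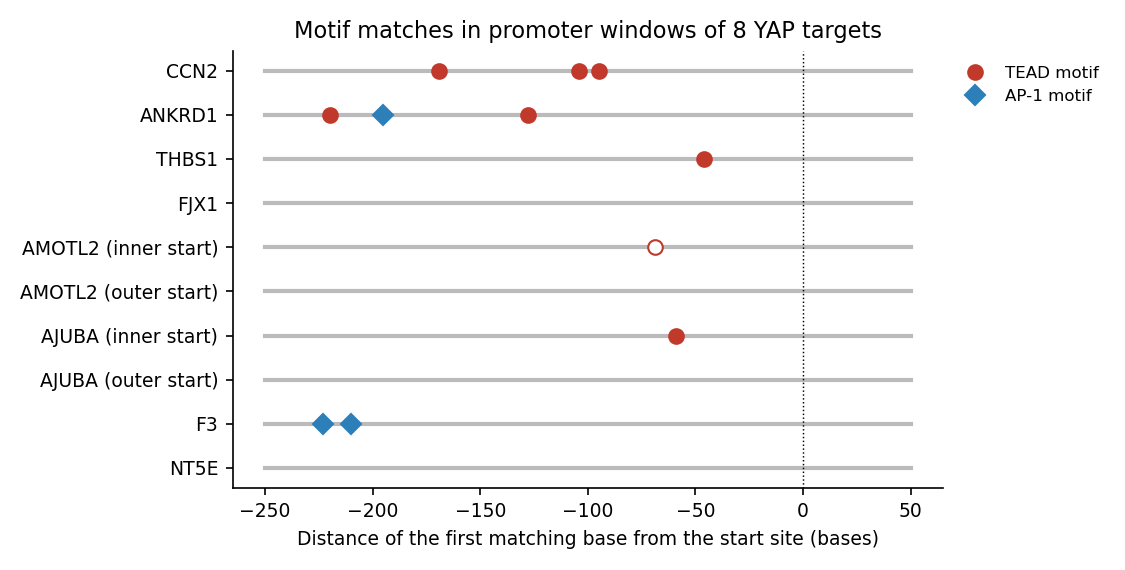
Positions of the TEAD motif (red circles, open on the opposite strand) and the AP-1 motif (blue diamonds) in 10 promoter windows of 8 genes, in bases from the start site; the windows of AMOTL2 and AJUBA are named by their inner and outer start. GGAATG occurs 3 times in CCN2, 2 times in ANKRD1 and 1 time in THBS1, AMOTL2 and AJUBA.

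The knockdown itself was checked first. RAD51C, a DNA repair gene of homologous recombination, had 3.51, 3.09 and 2.95 FPKM in sh-RAD51C, against 14.7, 13.2 and 13.6 FPKM in NC. FPKM are reads scaled for gene length and for the library's total, so that levels can be set side by side between genes. RAD51C fell to 23% of the NC mean. Its log2 fold change was -1.83 ± 0.064 (SE), with a Benjamini-Hochberg adjusted p of 7.16e-09 from limma and an exact two-sided permutation p of 0.1, the smallest that 3 libraries against 3 allow.

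Library totals, inferred from the steps between FPKM values, were 37104318 to 38079825 reads in sh-RAD51C and 36068282 to 37560184 reads in NC. Of all genes, 11152 averaged at least 1 FPKM and were tested, and 49.4% of those were called at an adjusted p under 0.05, 23.2% higher and 26.2% lower. The line carried its epithelial markers: 11 of 13 urothelial and epithelial markers were tested, KRT5, KRT7 and EPCAM among them, while the uroplakin genes UPK2 and UPK3A were near 0. The summed level of that list was 2810 to 2910 FPKM in sh-RAD51C and 3280 to 3380 FPKM in NC, with 5 members higher and 6 lower. On the log2 scale KRT14 fell by 2.14, KRT17 by 1.48 and KRT5 by 1.19. In the other direction, KRT7 rose by 0.75, KRT18 by 0.71 and EPCAM by 0.5. Fibroblasts express CCN1, CCN2, THBS1 and NT5E strongly, and of 12 fibroblast markers 11 were listed and 3 averaged at least 1 FPKM. Their sum was 56.4 to 58.0 FPKM in sh-RAD51C and 70.5 to 70.9 FPKM in NC, most of it FBLN1 at 44.4 ± 1.23 FPKM in sh-RAD51C and 55.9 ± 0.329 FPKM in NC (SD, n = 3 each). FBLN1 and COL1A1 were called lower and THY1 higher, at 5.52 ± 0.05 FPKM in sh-RAD51C and 4.56 ± 0.247 FPKM in NC, and COL1A2, DCN and POSTN were at or near 0. Endothelial markers summed to 0.424 to 0.595 FPKM in sh-RAD51C and 0.246 to 0.411 FPKM in NC, with 0 of 11 averaging 1 FPKM. Smooth muscle markers summed to 9.06 to 9.7 FPKM in sh-RAD51C and 9.64 to 10.2 FPKM in NC, with 3 of 8 tested and DES, CNN1 and MYH11 near 0. Blood cell markers summed to 90.1 to 95.2 FPKM in sh-RAD51C and 96.0 to 104 FPKM in NC, nearly all LAPTM5, with 3 of 11 tested and PTPRC near 0. The part of these cell types in the results was not tested.

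All 10 genes were higher in each of the 3 sh-RAD51C libraries than in the highest NC library. Across all genes tested 27.6% showed the same separation; the 10 were picked for their difference, so nothing is read from their count. The sizes of the differences fell into 3 bands. CCN1, THBS1, ANKRD1 and CCN2 differed most, from 5.48-fold to 14.3-fold by means. FJX1, AMOTL2, NT5E, CRIM1 and F3 differed by 1.87-fold to 2.57-fold. AJUBA differed by 1.24-fold, so that a description of the whole set as strongly induced does not hold for it. In bulk RNA a change in the share of cells that express a gene and a change in the level per cell cannot be told apart.

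**Figure D2:**
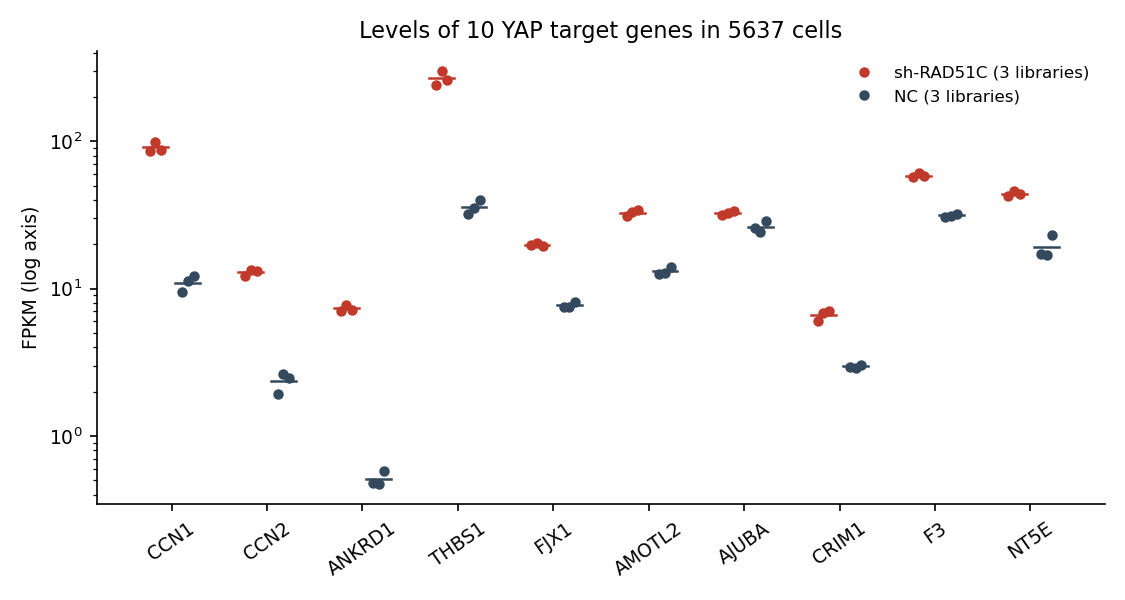
FPKM of the 10 genes (log axis) in each library, sh-RAD51C in red on the left and NC in dark blue on the right of each pair; horizontal lines are group means. All 3 sh-RAD51C points lie above all 3 NC points for each gene, most narrowly for AJUBA.

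Among the secreted matrix proteins, CCN1 acts as an integrin ligand and is one of the most used readouts of YAP. Its level was 86.2, 98.8 and 87.6 FPKM in sh-RAD51C, against 9.54, 11.3 and 12.1 FPKM in NC. The lowest sh-RAD51C library was 7.12 times the highest NC library. The log2 fold change was 2.94 ± 0.075 (SE) on the log2(FPKM + 1) scale used throughout, the highest of all 11152 genes tested. CCN1 lies on chromosome 1, bases 85580761 to 85583962, plus strand (GENCODE 29, GRCh38), with 5 exons, and 784 to 1036 inferred reads stood behind its NC values.

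CCN2, also known as connective tissue growth factor, is a relative of CCN1. It had 12.1, 13.4 and 13.1 FPKM in sh-RAD51C, against 1.94, 2.62 and 2.48 FPKM in NC, with the NC libraries spread more widely in proportion. The coefficient of variation was 5.34% in sh-RAD51C and 15.2% in NC, where 164 to 230 inferred reads gave a counting error of 6.59 to 7.81%. Its log2 fold change was 2.05 ± 0.078 (SE), or 5.48-fold by means. The gene is on chromosome 6, bases 131948176 to 131951373, minus strand, and 195 of its exon bases overlap an antisense transcript. Whether reads were counted by strand is unknown here, so reads of overlapping genes are uncertain.

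THBS1 encodes thrombospondin 1, a matrix glycoprotein that binds CD36, CD47 and integrins and can activate latent TGF-beta. It had 242, 298 and 261 FPKM in sh-RAD51C, against 32.2, 35.3 and 39.9 FPKM in NC. The groups were far apart, with a difference of means of 231 FPKM, the largest in absolute level among the 10 genes. Its log2 fold change was 2.86 ± 0.08 (SE), second among the genes tested. THBS1 spans chromosome 15, bases 39581079 to 39599466, plus strand, with 22 exons in its longest coding transcript. Exons of FSIP1 and of an antisense transcript overlap 694 of its exon bases on the opposite strand.

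THBS1 dominated the reads of the set. The 10 genes together took 0.283%, 0.335% and 0.303% of all inferred reads in sh-RAD51C libraries, against 0.065%, 0.0672% and 0.0765% in NC libraries. THBS1 supplied 66.6% to 69.3% of these reads in sh-RAD51C and 38.6% to 41.0% in NC.

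ANKRD1, an ankyrin repeat protein of muscle sarcomeres and nuclei, is a standard YAP readout in epithelial cells. It had 7.07, 7.8 and 7.13 FPKM in sh-RAD51C, against 0.48, 0.476 and 0.58 FPKM in NC. Every NC library was under 1 FPKM, so the gene entered the set of genes tested through its sh-RAD51C values. The NC values rest on 31, 32 and 39 inferred reads. Their exact 95% Poisson intervals, which cover counting error only, run from 21.1 to 44.0, from 21.9 to 45.2 and from 27.7 to 53.3 reads. The sh-RAD51C libraries held 482, 518 and 485 reads. The fold of means was 14.3, the highest of the 10 genes. The log2 fold change was 2.46 ± 0.065 (SE), which is held down by the added 1 FPKM. It was 3.61 with 0.1 FPKM added and 3.82 from inferred reads. ANKRD1 is on chromosome 10, bases 90912096 to 90921276, minus strand.

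The next pair of genes encode proteins that act back on the Hippo pathway. AMOTL2, an angiomotin family scaffold, binds YAP at cell junctions and promotes its phosphorylation. It had 31.0, 33.0 and 34.0 FPKM in sh-RAD51C, against 12.6, 12.7 and 14.1 FPKM in NC. The lowest sh-RAD51C library was 2.19 times the highest NC library. Its log2 fold change was 1.25 ± 0.052 (SE). The gene is on chromosome 3, bases 134355874 to 134375479, minus strand, and 187 of its exon bases overlap the pseudogene RPL39P5.

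AJUBA is a LIM domain protein that binds LATS kinases at tensed junctions and restrains them. It had 31.5, 32.8 and 33.6 FPKM in sh-RAD51C, against 25.7, 24.2 and 28.8 FPKM in NC. The lowest sh-RAD51C library was only 1.09 times the highest NC library. Its log2 fold change of 0.31 ± 0.057 (SE) ranked 1038 among the 11152 genes tested, while the other 9 genes ranked 92 or higher. AJUBA is on chromosome 14, bases 22971174 to 22982642, minus strand, and 50 of its exon bases overlap another coding gene model on the same strand.

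FJX1 is the human counterpart of a Drosophila Golgi kinase that modifies cadherins of the Fat pathway. It had 19.7, 20.3 and 19.4 FPKM in sh-RAD51C, against 7.48, 7.52 and 8.12 FPKM in NC. Its replicates were the tightest of the 10 genes in sh-RAD51C, with a coefficient of variation of 2.24% there and 4.69% in NC. The log2 fold change was 1.26 ± 0.047 (SE). The gene has 1 exon, on chromosome 11, bases 35618419 to 35620868, plus strand.

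Of the cell surface proteins, NT5E (CD73) converts extracellular AMP to adenosine. It had 42.6, 45.8 and 43.7 FPKM in sh-RAD51C, against 17.3, 16.9 and 23.0 FPKM in NC, where NC 3 stood above NC 1 and NC 2. Its coefficient of variation was 3.64% in sh-RAD51C and 17.8% in NC, the widest of the 10 genes in that group. The log2 fold change was 1.18 ± 0.09 (SE), and 1.31 without NC 3. NT5E is on chromosome 6, bases 85449584 to 85495791, plus strand.

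F3 encodes tissue factor, the cell surface initiator of blood clotting. It had 56.9, 60.8 and 57.7 FPKM in sh-RAD51C, against 30.8, 31.2 and 32.1 FPKM in NC. The groups were well separated at a modest ratio, 1.87-fold by means and 0.88 ± 0.038 (SE) on the log2 scale. In NC, F3 already stood above 82.4% of the genes tested. It is on chromosome 1, bases 94529225 to 94541800, minus strand.

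CRIM1 is a membrane protein with cysteine-rich repeats that binds bone morphogenetic proteins. It had 5.99, 6.83 and 7.05 FPKM in sh-RAD51C, against 2.95, 2.9 and 3.04 FPKM in NC. The spread was wider in sh-RAD51C, with a coefficient of variation of 8.42% there and 2.46% in NC. The log2 fold change was 0.94 ± 0.065 (SE), or 2.24-fold by means. CRIM1 is on chromosome 2, bases 36355926 to 36551135, plus strand. The gene length behind its FPKM was inferred as 11637 bases, against 7122 exon bases in GENCODE 29, so its level relative to other genes depends on the gene model used.

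The order of levels per length differed between the groups. In sh-RAD51C it ran THBS1, CCN1, F3, NT5E, AMOTL2, AJUBA, FJX1, CCN2, ANKRD1 and CRIM1. In NC it ran THBS1, F3, AJUBA, NT5E, AMOTL2, CCN1, FJX1, CRIM1, CCN2 and ANKRD1. CCN1 thus stood directly below THBS1 in sh-RAD51C and below AMOTL2 in NC. Among neighbours in these orders, only AMOTL2 and AJUBA in sh-RAD51C had overlapping library ranges. The gaps were small between ANKRD1 and CRIM1 in sh-RAD51C, at 7.07 and 7.05 FPKM for the nearest libraries, and between THBS1 and F3 in NC, at 32.2 and 32.1 FPKM.

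**Figure D3:**
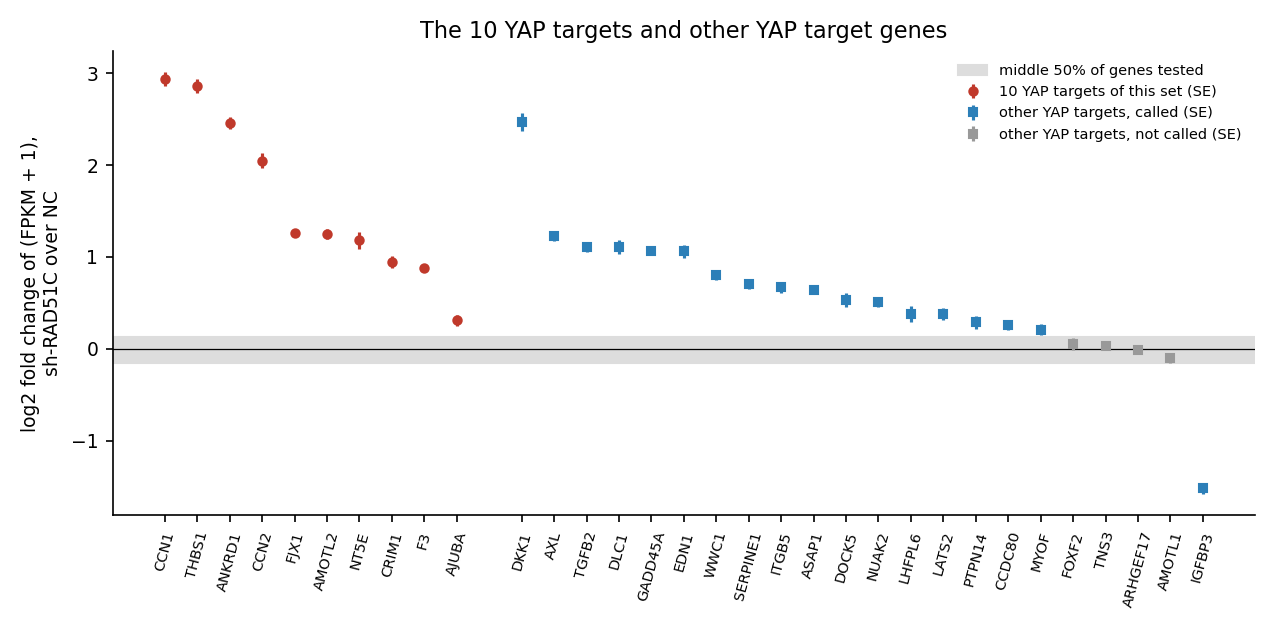
Log2 fold changes of FPKM + 1, sh-RAD51C over NC, with standard errors, for the 10 genes (red circles) and for 22 other YAP targets (squares, blue where called and grey where not). The grey band runs between the quartiles of all genes tested, -0.16 and 0.13; IGFBP3 at -1.52 is the only called gene of these below it.

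Within each group the same libraries tended to be highest for the 10 genes. In sh-RAD51C, library 2 was highest for 7 of the genes, library 3 for AMOTL2, AJUBA and CRIM1, and library 1 for 0, while library 1 was lowest for 9. In NC, library 3 was highest for 9 genes and library 2 for CCN2, while library 3 was lowest for 0. NC 1 was lowest for 6 of the 10 genes. Over all genes tested, sh-RAD51C 2 was the highest library of its group for 29.6% of genes and NC 3 for 43.4%. By the same measure sh-RAD51C 1 was the lowest of its group for 41.5% and NC 1 for 39.5%. Genes of 1 library share its depth and scaling, and these counts are given as a description. The median of the 10 genes, as a difference from the NC mean on the log2(FPKM + 1) scale, was 1.22, 1.28 and 1.27 in sh-RAD51C 1, 2 and 3, and -0.0451, -0.027 and 0.0845 in NC 1, 2 and 3. The differences between libraries of a group were small beside that between the groups. The 10 genes were picked for a difference between the groups, so this too is only a description.

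**Figure D4:**
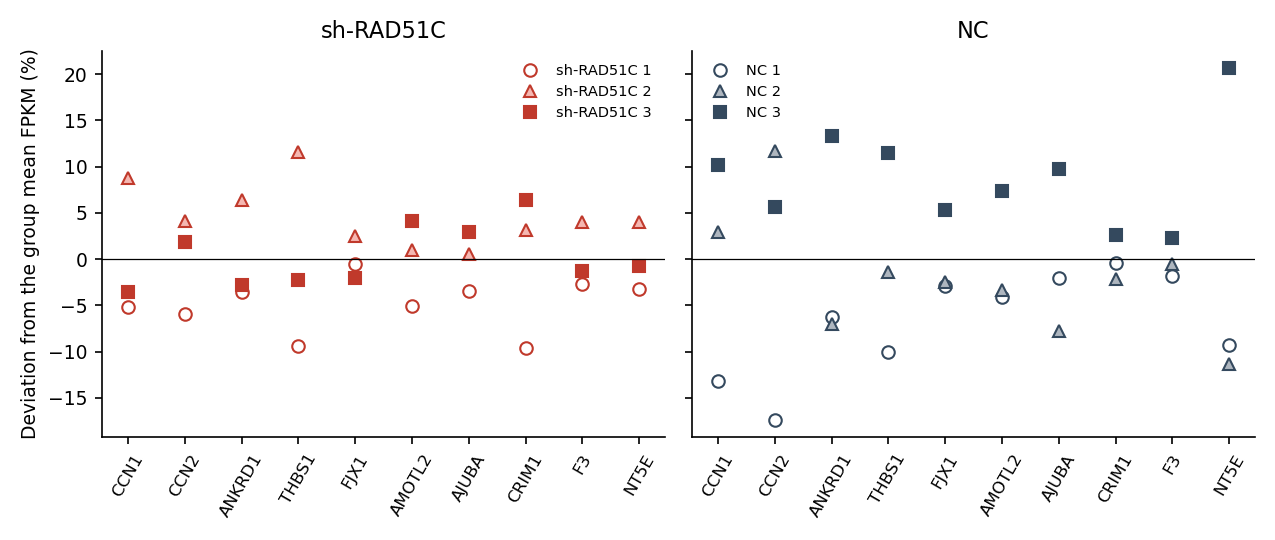
Deviation of each library from its group's mean FPKM, in percent, for the 10 genes, with sh-RAD51C in the left panel and NC in the right panel. NC 3 lies highest for 9 of 10 genes and sh-RAD51C 2 for 7 of 10.

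YAP targets outside the 10 genes were mostly higher too. Of 25 listed, 22 were tested, and 17 were higher, 1 was lower and 4 were not called. Their median log2 fold change was 0.52, against -0.011 for all genes tested, of which 23.2% were called higher. The list was drawn up with earlier results of these data known, so its direction is not independent evidence. DKK1, a secreted WNT inhibitor, had 33.5, 30.0 and 31.9 FPKM in sh-RAD51C, against 3.98, 5.13 and 5.83 FPKM in NC (log2 fold change 2.47, limma adjusted p = 1.05e-08). AXL, a receptor tyrosine kinase, had 65.6, 75.3 and 67.4 FPKM in sh-RAD51C, against 28.0, 28.4 and 30.5 FPKM in NC (limma adjusted p = 2.66e-08). In neither gene did the groups overlap. The endothelin gene EDN1 rose to 10 ± 0.355 FPKM in sh-RAD51C, against 4.3 ± 0.543 FPKM in NC (SD, n = 3 each). The growth factor gene TGFB2 rose by 1.11 and the stress gene GADD45A by 1.07 on the log2 scale.

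The exception was IGFBP3, a secreted binder of insulin-like growth factors. It had 43.8, 36.4 and 43.8 FPKM in sh-RAD51C, against 125, 121 and 115 FPKM in NC. Its groups did not overlap, and the log2 fold change was -1.52 ± 0.064 (SE; limma adjusted p = 2.11e-08). The 4 targets that did not pass the test, AMOTL1 among them, had log2 fold changes from -0.1 to 0.05, the upper value that of FOXF2. RBMS3, ITGB2 and CAVIN2 averaged under 1 FPKM and were not tested.

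The genes that carry the YAP signal had smaller differences. YAP1 had 50.4, 51.1 and 54.5 FPKM in sh-RAD51C, against 53.4, 51.8 and 53.4 FPKM in NC, so that the groups overlapped, and it did not pass the test (log2 fold change -0.02, SE 0.039, limma adjusted p = 0.644). WWTR1, which encodes TAZ, had 7.85 ± 0.476 FPKM in sh-RAD51C and 6.87 ± 0.0231 FPKM in NC (limma adjusted p = 0.023, from 0.00737 to 0.0821 over 13 alternatives). Its call was lost without sh-RAD51C 2 (0.055) or 3 (0.0821) and without NC 1 (0.0597), 2 (0.0614) or 3 (0.0567). The TEAD genes went both ways. TEAD4 rose to 15.6 ± 0.357 FPKM in sh-RAD51C, against 11.1 ± 0.433 FPKM in NC, while TEAD2 fell to 27.4 ± 1.08 FPKM in sh-RAD51C, against 36.3 ± 2.48 FPKM in NC, and TEAD3 to 5.49 ± 0.407 FPKM in sh-RAD51C, against 7.7 ± 0.405 FPKM in NC (limma adjusted p from 1.22e-05 to 0.000195). TEAD1 was higher by 0.23 on the log2 scale (limma adjusted p = 0.013, from 0.000626 to 0.0797 over 13 alternatives). That call was lost with no filter on low values (0.0797), without sh-RAD51C 2 (0.0532) or 3 (0.0562) and without NC 2 (0.0509).

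In the whole list of Hippo kinases, YAP, TAZ and TEADs, 11 of 24 tested were higher, 3 lower and 10 not called, with a median log2 fold change of 0.092. Over all genes tested 23.2% were called higher and 26.2% lower. Upstream members of the pathway that rose included WWC1, which encodes the scaffold KIBRA, by 0.8, NF2, which encodes merlin, by 0.56, and the kinase gene MAP4K4 by 0.33. The kinase gene LATS2, itself a YAP target, rose by 0.38, and SAV1 by 0.19. LATS1, STK3, STK4, MOB1A and MOB1B were not called, with log2 fold changes from -0.04 to 0.07. Of these, STK3 passed the test with quantile normalization (limma adjusted p = 0.0485). LATS2, WWC1, PTPN14 and AMOTL1 are also in the list of other YAP targets, so the counts of these lists overlap. VGLL4, which competes with YAP for TEAD, fell by 0.17, and its relative VGLL3 rose by 0.52.

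AP-1 factors, which often bind beside TEAD, were divided. Of 8 tested, 5 were higher and 3 lower, against 23.2% and 26.2% of all genes tested. FOSL1 had 139, 149 and 138 FPKM in sh-RAD51C, against 47.4, 51.8 and 60.8 FPKM in NC (limma adjusted p = 8.89e-08). JUN had 31.3, 35 and 31.6 FPKM in sh-RAD51C, against 17.7, 16.9 and 17.6 FPKM in NC (limma adjusted p = 1.49e-07). Neither overlapped between the groups. On the log2 scale JUNB fell by 0.64, JUND by 0.47 and FOSL2 by 0.26. FOS, FOSB and BATF averaged under 1 FPKM.

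**Figure D5:**
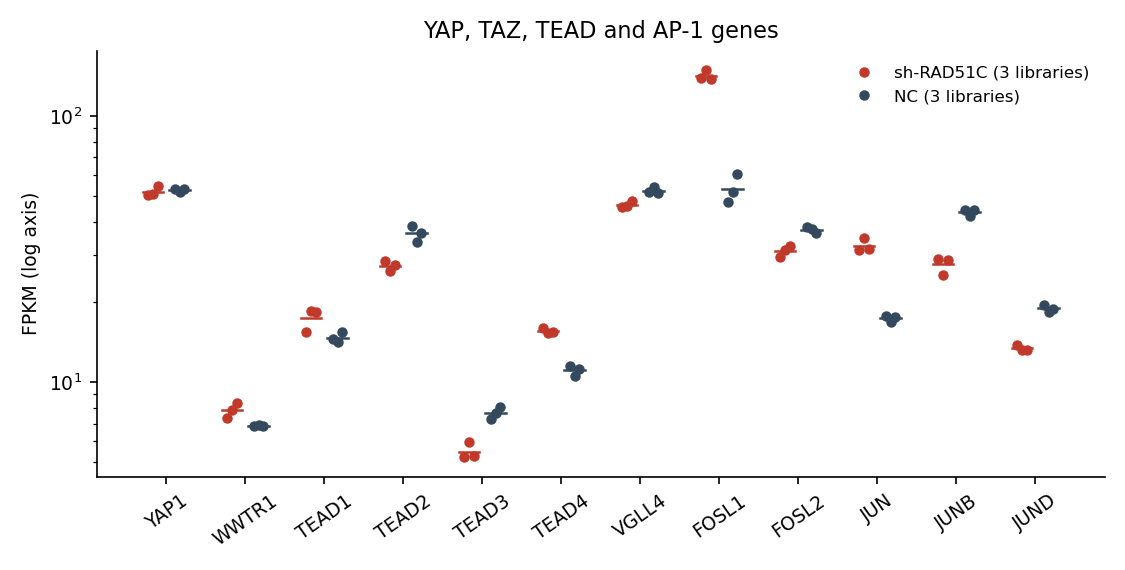
FPKM (log axis) of YAP1, WWTR1, TEAD genes, VGLL4 and AP-1 genes in each library, sh-RAD51C in red on the left and NC in dark blue on the right of each pair, with group means as lines. YAP1 overlaps between the groups, TEAD4, FOSL1 and JUN are higher in sh-RAD51C, and TEAD2, TEAD3, JUNB and JUND are lower.

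Over tested genes outside the set, the share called higher was 25.6% of 1220 genes with 1 GGAATG in the promoter window, 25.6% of 117 genes with 2 or more and 22.8% of 7686 genes with none. It was 30.6% of 614 genes with TGANTCA and 22.7% of 8409 genes without it. For the 153 genes whose windows held both motifs it was 37.3%, with 22.2% called lower. The background over all genes tested was 23.2% higher and 26.2% lower. These shares are a description without a test, the motifs were chosen after the data were seen, and 81% of the genes tested had a window.

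Targets of SRF and its MRTF cofactors were counted because CCN1, CCN2 and THBS1 are also known targets of that system. The list also holds the regulator genes SRF, MRTFA and MRTFB themselves. Of 23 tested, 15 were higher, 2 lower and 6 not called, with a median log2 fold change of 0.26; the shares over all genes tested were 23.2% higher and 26.2% lower. The focal adhesion gene FHL2 rose to 19.5 ± 0.593 FPKM in sh-RAD51C, against 10.9 ± 0.465 FPKM in NC, and the actin crosslinker gene ACTN1 to 90.7 ± 3.75 FPKM in sh-RAD51C, against 57.0 ± 1.16 FPKM in NC (SD, n = 3 each). The tropomyosin gene TPM1 rose by 0.61 and the actin gene ACTG1 by 0.49 on the log2 scale. The 2 lower genes were TPM2, which fell by 0.49, and TAGLN2, which fell by 0.16. ACTA2 was not called (limma adjusted p = 0.318), and TAGLN and CNN1 averaged under 1 FPKM. Among the higher genes, MYL9 kept its call in only 6 of 12 alternatives and MRTFA in 7 of 13. SRF itself had 11.9 ± 0.49 FPKM in sh-RAD51C and 11.3 ± 0.191 FPKM in NC and was not called (limma adjusted p = 0.263).

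Paralogs of the 10 genes were mostly low. Of 14 listed, 12 were in the table and 7 were tested, of which 1 was higher, 1 lower and 5 not called, beside 49.4% called over all genes tested. CCN3 had 1.62 ± 0.263 FPKM in sh-RAD51C and 1.48 ± 0.127 FPKM in NC, and CCN4 was near 0. CCN6 was called higher although its groups overlapped (log2 fold change 0.3, limma adjusted p = 0.0478, from 0.0104 to 0.203 over 12 alternatives). The call was lost in 7 of those, among them without sh-RAD51C 1 (0.108) or 2 (0.186) and without NC 1 (0.136) or 2 (0.142). THBS3 fell to 1.06 ± 0.0669 FPKM in sh-RAD51C, against 1.72 ± 0.157 FPKM in NC, while THBS2 was near 0. AMOTL1 had 36.4 ± 2.78 FPKM in sh-RAD51C and 39.1 ± 0.735 FPKM in NC and did not pass the test, nor did CCN3, LIMD1, WTIP and ANKRD23. ANKRD23 had an adjusted p of 0.069 from limma, and 0.0251 without sh-RAD51C 3.

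Of 14 tested genes listed as receptors of the CCN and thrombospondin proteins, 3 were higher, 7 lower and 4 not called. Among all genes tested these shares were 23.2% higher and 26.2% lower. The 7 lower include HSPG2, which encodes a matrix proteoglycan and not a receptor. ITGB5, among the 3 higher, is also in the list of other YAP targets. Of the integrin genes, ITGB1 rose by 0.29 on the log2 scale and ITGB5 rose to 22.4 ± 1.47 FPKM in sh-RAD51C, against 13.7 ± 1.02 FPKM in NC, while ITGA2 and ITGA6 each fell by 0.3 and ITGA5 by 0.25. LRP1, an endocytic receptor that clears thrombospondin, fell to 3.02 ± 0.345 FPKM in sh-RAD51C, against 7.22 ± 0.176 FPKM in NC, and CD47 fell by 0.19 on the log2 scale. ITGAV had 18.6 ± 1.04 FPKM in sh-RAD51C and 19.9 ± 0.528 FPKM in NC and was not called (limma adjusted p = 0.13, from 0.049 to 0.329 over 13 alternatives, lowest without sh-RAD51C 3). SDC1 fell by 0.29 on the log2 scale. CD36 was near 0.

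Of 7 tested genes of the tissue factor pathway, 5 were higher and 2 lower, where all genes tested gave 23.2% higher and 26.2% lower. TFPI2, a secreted protease inhibitor, had 20.7, 18.9 and 17.7 FPKM in sh-RAD51C, against 8.07, 6.96 and 7.87 FPKM in NC (limma adjusted p = 1.18e-07), with no overlap. TFPI, the main inhibitor of tissue factor, fell to 8.49 ± 0.314 FPKM in sh-RAD51C, against 9.98 ± 0.278 FPKM in NC. The protease-activated receptor genes F2R and F2RL1 rose by 0.42 and 0.51 on the log2 scale. ANXA5 rose by 0.6 and THBD by 0.37.

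Around NT5E, 6 of 16 genes of extracellular adenosine were tested, of which 2 were higher, 1 lower and 3 not called. That is near the 49.4% called over all genes tested. ADA, which deaminates adenosine, fell to 8.5 ± 1.05 FPKM in sh-RAD51C, against 14.0 ± 1.42 FPKM in NC. The adenosine kinase gene ADK rose by 0.44 and the transporter gene SLC29A1 by 0.45 on the log2 scale. The receptor gene ADORA2B had 3.07 ± 0.134 FPKM in sh-RAD51C and 2.99 ± 0.31 FPKM in NC and was not called (limma adjusted p = 0.714). ENTPD1, which makes the AMP that NT5E uses, was near 0 in both groups. The related gene ENTPD2 had 0.974 ± 0.303 FPKM in sh-RAD51C and 1.41 ± 0.378 FPKM in NC and was not called (limma adjusted p = 0.0822, from 0.0179 to 0.333 over 12 alternatives). It passed the test with a replicate block (0.0179), without sh-RAD51C 1 (0.0247) and without NC 2 (0.0251).

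The genes whose pattern over the 6 libraries lay nearest to the median of the 10 genes were GPRC5A, AXL, AKAP12, G0S2 and SCEL. Likeness was the Euclidean distance between log2(FPKM + 1) values taken relative to the NC mean, over 7368 other genes that averaged at least 5 FPKM. The distances ran from 0.115 for GPRC5A to 0.176 for SCEL. GPRC5A, an orphan receptor, had 31.9, 34.8 and 34.0 FPKM in sh-RAD51C, against 13.3, 14.2 and 14.2 FPKM in NC. AKAP12, a scaffold for protein kinase A, had 55.5, 66.2 and 60.7 FPKM in sh-RAD51C, against 24.3, 24.6 and 25.7 FPKM in NC. In both genes sh-RAD51C 2 was the highest library and NC 1 the lowest. G0S2, an inhibitor of triglyceride breakdown, averaged 72.3 ± 2.91 FPKM in sh-RAD51C and 30.1 ± 1.61 FPKM in NC, and SCEL, which encodes sciellin, 8.56 ± 0.97 FPKM in sh-RAD51C and 2.93 ± 0.277 FPKM in NC (SD, n = 3 each). These genes were chosen by this likeness, so their differences are a description.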

How the data were processed

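Gene levels of 5637 cells were deposited by the authors as FPKM for 23024 gene symbols, in 3 sh-RAD51C and 3 NC columns matched to libraries by title. RNA was extracted with TRIzol, per the labels' protocols. The submitters' processing notes name build hg38, R 3.2.0 and DESeq2 with no stated role for the authors' FPKM. Aligner, counter, strand setting and annotation: not given in the sources used here.

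The 11152 genes averaging 1 FPKM or more were tested on log2(FPKM + 1) with limma 3.58.1 in R 4.3.3, using a mean-variance trend and Benjamini-Hochberg adjustment over all of them. That scale understates changes of low genes. Whole reads were inferred from FPKM steps for 100% of these genes, taking the smallest gene length that gave whole reads, with library totals from RefSeq gene lengths. Replicate libraries were distinct: their reads gave chi-square values of 3.692 to 14.308 for each degree of freedom. On simulated libraries of 11152 genes the fit called 32, 50, 49 and 50 of 50 genes changed 1.2-, 1.5-, 2- and 4-fold, and 21 of 10952 unchanged genes. Every simulated gene had the same low extra spread between replicates, and far fewer genes were changed than the 49.4% called here. These counts therefore check the working of the fit and do not give its power or false calls in these libraries. The 10 genes and the 13 other lists were chosen with earlier results of these data known. Named are the 10 genes, RAD51C, up to 4 genes per list with the smallest p, partners, receptors and paralogs of the 10 genes, and the 5 genes nearest in pattern. Of the genes with the smallest p, SMTN, SYNM, CD14 and CD68 are counted in their lists and not described. KRT7 and EPCAM lie outside this rule. EDN1, TGFB2, FOSL2, FOXF2, the 3 lower integrins and the untested genes were named after their values were seen. So were TPM2, TAGLN2, MYL9, MRTFA, MRTFB, PTPN14, HSPG2, VGLL3, SAV1, LATS1, STK3, STK4, MOB1A and MOB1B. Positions are from GENCODE 29 and promoter windows from RefSeq on GRCh38.p14. Alternatives were the pseudocount, the filter, 2 rescalings, a replicate block and the omission of each library, plus voom on inferred reads, chosen after seeing the data. Python 3.11.15, pandas 2.3.3, numpy 2.4.6 and scipy 1.17.1 did the other calculations.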

Additional observations from a re-analysis of the deposited data

How the results depend on the processing

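The median log2 fold change of the 10 genes, 1.26, was 1.33 with a pseudocount of 0.1 FPKM, 1.34 with voom on inferred reads, and 1.23 to 1.31 when single libraries were left out, highest without NC 3. None of the 10 changed direction under any of the 13 alternatives that tested it. The 10 were picked as higher in this contrast, with no overlap between the groups, so this largely follows from the choice. ANKRD1 and CRIM1 fell under the filter at 5 FPKM and were not tested there. The count of other YAP targets called, 18 of 22, was 15 of 19 tested at a mean of at least 5 FPKM. It was 17 of 25 tested with no filter on low values, and 18 of 22 in every other alternative. Genes called numbered 5511, and 4522 to 5464 with single libraries left out. The number called lower, 2922, was 1859 at a mean of at least 5 FPKM, where fewer genes were tested. Of 124 tested genes of the 13 lists, 93 were called, and 83 of these kept their call in every alternative that tested them. Signs turned in 1 or more alternatives for 9 genes, 0 of them called. Among the genes named these include LATS1 in 2 alternatives and MOB1B in 1. The others named are ADORA2B without NC replicate 1 (-0.01), LIMD1 with quantile normalization (0.03) and FOXF2 without sh-RAD51C replicate 1 (-0.01) and without NC replicate 1 (0). The replicate numbers were not treated as pairing, since the labels do not say that they pair libraries. Correlations of deviations were 0.19, 0.026 and 0.091 for equal numbers. For unequal numbers they ran from -0.167 to 0.11, the latter for sh-RAD51C 2 with NC 3. The highest of all was 0.19, for sh-RAD51C 1 with NC 1, and a batch shared by number was not tested. A replicate block gave 5569 calls and the same median of 1.26. Depth limits ANKRD1 most, at 31 to 39 inferred reads per NC library.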
